A study of Mus musculus with 6 samples.

Results

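The miR-7 and miR-153 families were examined in small RNA libraries from the right SN of mice that carried hα-syn(A53T), the A53T form of human α-syn. The 7 members are all mature arms of 4 hairpins (miR-153, miR-7a-1, miR-7a-2 and miR-7b), and all 7 were found by name among the 1393 annotated miRNAs of the deposited table. The members were listed for their known action on α-syn, with earlier results of these data known. That listing set no threshold on their values. The paper, however, had singled out miR-153-3p from these same data, by cut-offs on fold change and p-value and by a predicted α-syn site. The test of miR-153-3p given here is thus not independent of that choice. The comparison was made between 3 libraries of the hα-syn(A53T) + Ang-(1-7) group and 3 libraries of the hα-syn(A53T) group. By the paper's methods, adult male C57BL/6J mice of both groups had received an AAV coding for hα-syn(A53T) in the right SNpc. Ang-(1-7), the angiotensin peptide that binds the Mas receptor, was delivered above the SN at 1.1 nmol in 0.25 μL per hour for 4 weeks, and the hα-syn(A53T) group had artificial cerebrospinal fluid at the same rate. The labels name instead a strain that overexpresses the human protein, and the promoter of the AAV and the cells it reached were not found in the sources used here. Both groups carried the transgene, so neither shows the levels of an unmodified SN. The paper gives a group size equal to the number of libraries but does not say whether a library came from a single mouse or a pool, so the p-values rest on how far the libraries of a group lie apart, which may be technical.

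A miRNA guides Argonaute proteins to messenger RNAs that pair with its seed, bases 2 to 8 from the 5′ end, and lowers their stability or translation. miR-7 and miR-153 are both known to repress α-syn through sites in its messenger RNA. miR-7 is enriched in neurons and endocrine cells. Its amount is known to depend on the circular RNA Cdr1as, which holds many miR-7 sites, and on the long non-coding RNA Cyrano, which directs its decay. miR-153 is a neuronal miRNA. Each hairpin yields a 5p and a 3p arm, of which 1 is usually kept by Argonaute (the guide) and the other is mostly degraded (the passenger). For miR-7 the guide is the 5p arm and for miR-153 it is the 3p arm.

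The mature sequences are shown because the families share no seed, and because the reads of close paralogs can be told apart only by the few bases that differ. They were taken from RefSeq (GRCm38.p6), where all 7 members matched by name. The seed is in capitals, and mmu- marks the mouse miRNA, as in the deposited table.
mmu-miR-153-3p: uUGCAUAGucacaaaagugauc
mmu-miR-153-5p: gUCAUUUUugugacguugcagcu
mmu-miR-7a-5p: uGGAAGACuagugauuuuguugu
mmu-miR-7b-5p: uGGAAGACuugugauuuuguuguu
mmu-miR-7a-1-3p: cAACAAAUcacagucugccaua
mmu-miR-7a-2-3p: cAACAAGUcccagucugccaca
mmu-miR-7b-3p: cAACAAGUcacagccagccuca

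The 7 arms carry 5 seeds. miR-7a-5p and miR-7b-5p share the seed GGAAGAC, and no other mouse miRNA in the RefSeq table has it. They differ by the single substitution A10U, counted from the 5′ end of miR-7a-5p, and by 1 further base at the 3′ end of miR-7b-5p, so reads that are short or carry an error at that base could be counted for the wrong paralog. miR-7a-5p is made from 2 hairpins with the same mature sequence, so its reads cannot be assigned to miR-7a-1 or miR-7a-2. The 3p arms can be: miR-7a-1-3p and miR-7a-2-3p differ by A7G, A10C and U21C. The first of these lies in the seed, so that miR-7a-2-3p has its seed in common with miR-7b-3p and not with miR-7a-1-3p.

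The hairpins are shown with both mature arms in capitals, since the arm ratios given later compare the strands of 1 hairpin.
miR-153 hairpin: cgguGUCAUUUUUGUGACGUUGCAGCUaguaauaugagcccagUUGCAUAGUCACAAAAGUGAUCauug
miR-7a-1 hairpin: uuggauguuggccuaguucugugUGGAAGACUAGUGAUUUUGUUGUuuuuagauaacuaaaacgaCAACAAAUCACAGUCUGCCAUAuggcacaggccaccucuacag
miR-7a-2 hairpin: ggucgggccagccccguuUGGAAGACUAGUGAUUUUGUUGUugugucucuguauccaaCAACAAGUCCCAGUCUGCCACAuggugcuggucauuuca
miR-7b hairpin: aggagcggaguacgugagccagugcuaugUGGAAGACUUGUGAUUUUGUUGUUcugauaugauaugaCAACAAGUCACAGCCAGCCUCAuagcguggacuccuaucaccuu

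The 4 hairpins lie on 4 chromosomes, which sets them apart from miRNA families encoded as 1 cluster. In GRCm38 the miR-153 hairpin is on chromosome 12 from 117250817 to 117250885 (plus strand), in an intron of Ptprn2 (116485720 to 117276849), which codes for a membrane protein of dense-core vesicles. The long non-coding gene Gm5441 overlaps it on the other strand. The miR-7a-1 hairpin is on chromosome 13 from 58392779 to 58392886 (minus strand), in an intron of Hnrnpk (58391142 to 58403343), a gene for an RNA-binding protein that most cells express. The miR-7a-2 hairpin is on chromosome 7 from 78888277 to 78888373 (plus strand), with no other annotated gene spanning it, and 7481 bases from Aen. The miR-7b hairpin is on chromosome 17 from 56242988 to 56243098 (plus strand), with no other annotated gene spanning it, and 13712 bases from Fem1a. No exon of another gene overlapped any of the 4 hairpins in GENCODE M21, in a search that left out genes for miRNAs. A miRNA gene overlapping part of a hairpin would thus not have been found.

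The libraries held 14796519 to 17088611 reads over annotated miRNAs, a value worked out from the deposited normalized counts (reads divided by a size factor of 0.908 to 1.10), and 1067 to 1132 annotated miRNAs were detected in a library. The 7 arms together took 1.46% to 2.19% of these reads in Ang-(1-7) libraries and 0.841% to 1.19% in hα-syn(A53T) libraries. The labelled tissue was checked with neuronal miRNAs, which can show brain tissue but cannot tell the SN from other brain regions. miR-9-5p stood between 1441286 and 2312130.5 normalized counts in every library, and miR-124-3p between 46739 and 112701, so defining miRNAs of neurons were abundant in all 6. No library was a copy of another of its group (chi-square of read counts, divided by its degrees of freedom, of 292 to 1804).

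miR-7 was by far the more abundant family. miR-7a-5p ranked 21st of the 1393 annotated miRNAs by mean level and miR-7b-5p ranked 53rd, whereas miR-153-3p lay well below both, at a mean of 5594 normalized counts over the 6 libraries. The sum of the miR-7 guides was 27.6 to 45.7 times the level of miR-153-3p in Ang-(1-7) libraries and 34.6 to 61.5 times in hα-syn(A53T) libraries. These are ratios of normalized counts of miRNAs of nearly the same length (22 to 24 bases), and the ligation and amplification of single miRNAs can differ, so they are not ratios of molecules.

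Among the miR-7 guides, miR-7a-5p exceeded miR-7b-5p by 4.18 times on average, and the gap on the log2 scale was nearly constant over the libraries (2.06 ± 0.122, SD, n = 6). Going down the order of mean level, averaged over both groups, miR-7b-5p was 7.84 times miR-153-3p, miR-153-3p was 5.22 times miR-153-5p, miR-7a-1-3p was 3.99 times miR-7a-2-3p and miR-7a-2-3p was 4.85 times miR-7b-3p. Each of these 5 steps had the same sign in 6 of 6 libraries (exact sign-flip permutation test, two-sided, p = 0.03125 for each, the smallest that 6 libraries allow, and 0.0375 after adjustment over the 6 steps). The remaining step did not hold up over the 6 libraries (mean log2 difference 0.49, exact p = 0.21875). miR-153-5p was above miR-7a-1-3p in 3 of 3 Ang-(1-7) libraries (1.91 to 2.73 times) and in 1 of 3 hα-syn(A53T) libraries (0.715 to 1.17 times). The folds of the next steps are averages over groups with different ranges. miR-7a-1-3p was 1.88 to 4.47 times miR-7a-2-3p in Ang-(1-7) libraries and 4.48 to 8.32 times in hα-syn(A53T) libraries, and miR-7a-2-3p was 5.21 to 11.2 times miR-7b-3p in Ang-(1-7) libraries and 1.81 to 4.83 times in hα-syn(A53T) libraries. Leaving out a library ends the other calls by design, since 5 libraries cannot reach 0.05 in this test.

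**Figure D1:**
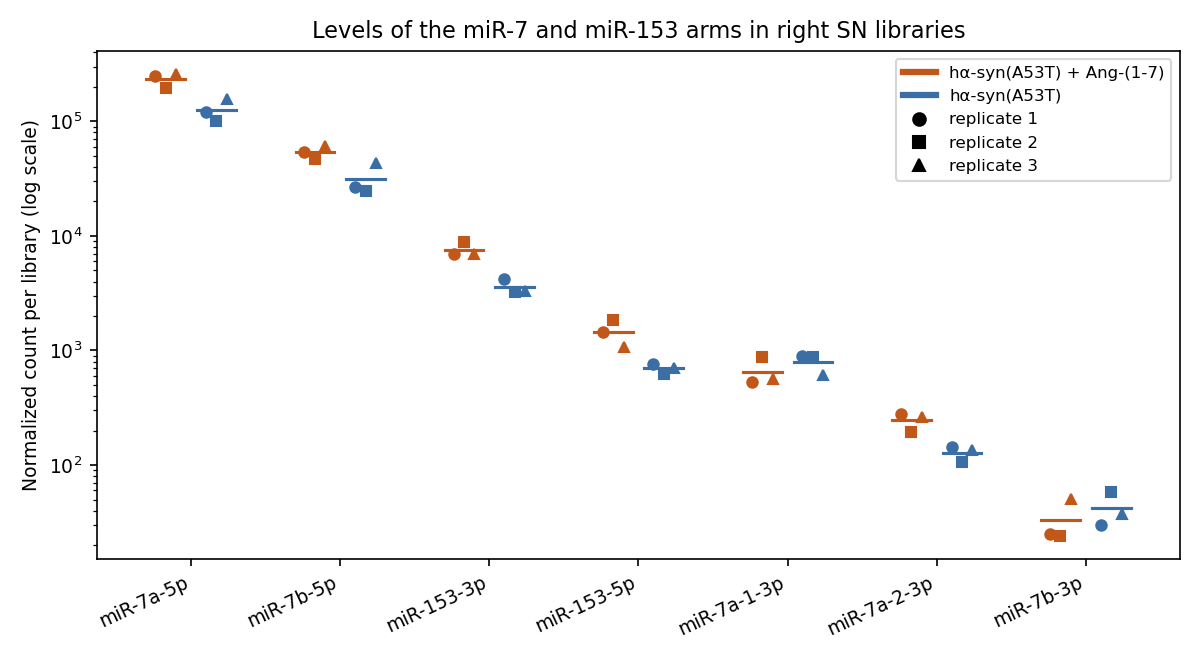
Normalized counts of the 7 arms in each library on a log scale, in order of mean level, with hα-syn(A53T) + Ang-(1-7) libraries (orange) left of hα-syn(A53T) libraries (blue); lines are group means and the marker shape is the replicate number. The miR-7 guides stand highest, the groups of 5 arms do not overlap, with the Ang-(1-7) libraries higher, and miR-7a-1-3p and miR-7b-3p overlap.

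Both arms of miR-153 were higher after Ang-(1-7). The guide miR-153-3p stood at 6978, 8836 and 7018 normalized counts in Ang-(1-7) libraries, against 4247, 3209 and 3275 in hα-syn(A53T) libraries. The groups did not overlap, and the lowest Ang-(1-7) library was 1.64 times the highest hα-syn(A53T) library. The log2 fold change was 1.09 (standard error 0.21, adjusted p = 0.0146 from limma on log2(normalized count + 1), over the 1065 annotated miRNAs that reached 1 normalized count in 3 or more libraries). Of all miRNAs tested, 9.58% passed at an adjusted p under 0.05, 5.54% as higher and 4.04% as lower. In bulk tissue, a change in the number of the cells that make a miRNA and a change in the amount per cell cannot be told apart.

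The passenger arm miR-153-5p stood at 1437, 1842 and 1067 normalized counts in Ang-(1-7) libraries, against 756, 628 and 710.3 in hα-syn(A53T) libraries. The groups did not overlap here either, and the Ang-(1-7) libraries were more widely spread than the others (coefficients of variation of 26.8% and 9.24%). The log2 fold change was 1.02 (standard error 0.25, adjusted p = 0.0358 from limma). The call of miR-153-3p ended without hα-syn(A53T) replicate 2 (1.02 on the log2 scale, adjusted p = 0.0971), and that of miR-153-5p ended when any 1 library was left out other than Ang-(1-7) replicate 3 (0.83 to 1.08, adjusted p = 0.0599 to 0.168), all from limma. Both calls also ended with the level of the miR-10 miRNAs (markers of hindbrain and spinal cord) as a covariate (0.86 and adjusted p = 0.223 for miR-153-3p, 0.60 and adjusted p = 0.422 for miR-153-5p, from limma).

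The miR-7 guides were higher as well, and only miR-7a-5p passed the test. miR-7a-5p stood at 247086, 196594 and 259714 normalized counts in Ang-(1-7) libraries, against 120433, 100089 and 157725 in hα-syn(A53T) libraries. The lowest Ang-(1-7) library was 1.25 times the highest hα-syn(A53T) library, so the groups did not overlap. The log2 fold change was 0.91 (standard error 0.22, adjusted p = 0.0358 from limma). The call ended without Ang-(1-7) replicate 1 or 3 or without hα-syn(A53T) replicate 1 or 2 (0.76 to 0.89, adjusted p = 0.0605 to 0.175 from limma), and with the miR-10 covariate (1.06, adjusted p = 0.190 from limma).

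miR-7b-5p stood at 54439, 46989 and 61192 normalized counts in Ang-(1-7) libraries, against 26648, 24682 and 43694 in hα-syn(A53T) libraries. The groups did not overlap, but hα-syn(A53T) replicate 3 came close to the lowest Ang-(1-7) library, which was 1.08 times as high. The log2 fold change was 0.82 (95% interval 0.26 to 1.37, standard error 0.25, adjusted p = 0.0720 from limma) and did not pass. It passed without hα-syn(A53T) replicate 3 (1.07, adjusted p = 0.0153 from limma). miR-7a-5p and miR-7b-5p were not shown to respond differently, since the log2 ratio of miR-7a-5p to miR-7b-5p averaged 2.11 ± 0.0627 with Ang-(1-7) and 2.02 ± 0.162 without it (SD, n = 3, exact permutation test, two-sided p = 0.4). miR-7b-5p made up 18.1%, 19.3% and 19.1% of the miR-7 guides in Ang-(1-7) libraries, against 18.1%, 19.8% and 21.7% in hα-syn(A53T) libraries.

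The 3p arms of the miR-7 hairpins had estimates of both signs, and none passed. miR-7a-2-3p, the passenger of the intergenic hairpin, stood at 281, 195 and 265 normalized counts in Ang-(1-7) libraries, against 143.5, 106 and 136 in hα-syn(A53T) libraries. The groups did not overlap, and the log2 fold change was 0.93 (95% interval 0.34 to 1.53, standard error 0.27, adjusted p = 0.0554 from limma), which did not pass. It passed without Ang-(1-7) replicate 2 (1.09, adjusted p = 0.0428 from limma).

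miR-7a-1-3p, the passenger of the hairpin inside Hnrnpk, stood at 526, 873 and 559.8 normalized counts in Ang-(1-7) libraries, against 904, 878 and 607 in hα-syn(A53T) libraries. These groups overlapped, and its log2 fold change was -0.30 (95% interval -0.92 to 0.31, standard error 0.28, adjusted p = 0.560 from limma). Its estimate was thus of the other sign than those of miR-7a-5p and miR-7a-2-3p, with an interval that includes 0.

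miR-7b-3p was the least abundant arm, at 24.97, 24.2 and 50.8 normalized counts in Ang-(1-7) libraries, against 29.7, 58.4 and 37.4 in hα-syn(A53T) libraries. The groups overlapped. Only 22 to 63 reads stood behind each of these values, and the log2 fold change of -0.35 had a 95% interval of -1.24 to 0.55 (adjusted p = 0.655 from limma).

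**Figure D2:**
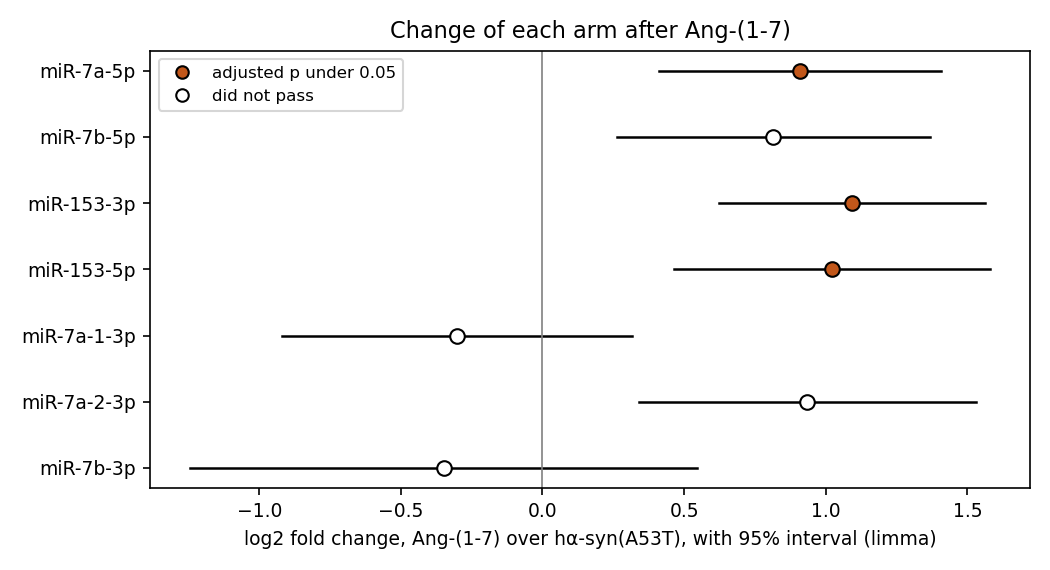
log2 fold change of each arm, Ang-(1-7) over hα-syn(A53T), with its 95% interval from limma (x axis); filled points passed an adjusted p under 0.05 and open points did not. Filled points are miR-7a-5p, miR-153-3p and miR-153-5p, and the intervals of miR-7a-1-3p and miR-7b-3p include 0.

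Of the 7 arms, all of which met the filter on low values, 3 rose, 0 fell and 4 did not pass in limma. The shares over all miRNAs tested were 5.54% higher and 4.04% lower. An unadjusted limma p under 0.05 was found for 5 of the 7, as for 23.2% of all miRNAs tested. The median log2 fold change of the 7 was 0.91, beside -0.04 over all 1065 miRNAs tested. In 5 of the 7 the groups did not overlap and Ang-(1-7) was the higher one. Over all miRNAs tested the groups did not overlap for 28.2%, with Ang-(1-7) higher for 14.2% and lower for 14%. The arms of 1 hairpin come from 1 transcript and miR-7a-5p counts for 2 hairpins, so the 7 are not independent results. For a single arm the exact permutation test over the libraries cannot go below p = 0.1 with 3 against 3, and it gave p = 0.1 for the 5 arms without overlap, 0.2 for miR-7a-1-3p and 0.5 for miR-7b-3p.

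Ratios between arms of 1 library hardly depend on its scaling, and 6 of them were compared. The ratio of the miR-153 arms was not shown to differ. miR-153-3p was 4.85, 4.80 and 6.58 times miR-153-5p in Ang-(1-7) libraries, against 5.62, 5.11 and 4.61 times in hα-syn(A53T) libraries. The difference in mean log2 ratio of 0.07 was smaller than the SDs of the groups (0.258 with Ang-(1-7) and 0.143 without it, exact permutation test, two-sided p = 0.8). It changed sign when Ang-(1-7) replicate 3 or hα-syn(A53T) replicate 3 was left out.

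The balance between the miR-7a-1 and miR-7a-2 passengers differed more in size. miR-7a-1-3p made up 65.2%, 81.73% and 67.9% of the miR-7a 3p arms in Ang-(1-7) libraries, against 86.3%, 89.3% and 81.74% in hα-syn(A53T) libraries. miR-7a-1-3p was thus the larger of the passengers in 6 of 6 libraries. The highest Ang-(1-7) library and the lowest hα-syn(A53T) library were all but equal. With a pseudocount of 1, the log2 ratio of miR-7a-1-3p to miR-7a-2-3p averaged 1.38 ± 0.678 after Ang-(1-7) and 2.62 ± 0.446 in hα-syn(A53T) libraries (SD, n = 3), a difference of -1.24 (exact permutation test, two-sided p = 0.2, or 0.4 adjusted over the 6 ratios). Without a pseudocount the groups just failed to overlap (ratios of 4.475 against 4.478 for the nearest libraries, exact permutation test, two-sided p = 0.1). The difference was negative in each of the 6 fits that left out a library (-1.62 to -0.999).

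The ratios of miR-7 guides to their passengers had higher means after Ang-(1-7). With 3 libraries against 3 the exact permutation test cannot go below p = 0.1, so no ratio could have passed in it. miR-7a-5p was 306, 184.1 and 315 times the sum of the miR-7a 3p arms in Ang-(1-7) libraries, against 115, 102 and 212.4 times in hα-syn(A53T) libraries. The groups overlapped through Ang-(1-7) replicate 2 and hα-syn(A53T) replicate 3 (difference in log2 ratio 0.95, exact permutation test, two-sided p = 0.2). miR-7b-5p was 2180, 1938 and 1204 times miR-7b-3p in Ang-(1-7) libraries, against 896, 423 and 1167 times in hα-syn(A53T) libraries. These groups did not overlap on the log2 scale with a pseudocount of 1, by a narrow margin (10.21 against 10.15 for the nearest libraries), and the difference was 1.16 (exact p = 0.1, or 0.4 adjusted over the 6 ratios). It rests on the 22 to 63 reads of miR-7b-3p.

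The balance between the families was not shown to differ. miR-153-3p over the sum of the miR-7 guides had a log2 ratio of -5.24 ± 0.400 after Ang-(1-7) and -5.45 ± 0.438 in hα-syn(A53T) libraries (SD, n = 3), a difference of 0.20 (exact permutation test, two-sided p = 0.6, or 0.72 adjusted over the 6 ratios). The sign of this difference turned when Ang-(1-7) replicate 2 or hα-syn(A53T) replicate 3 was left out. These tests do not show that the ratios were the same, since 3 libraries a group give wide errors.

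**Figure D3:**
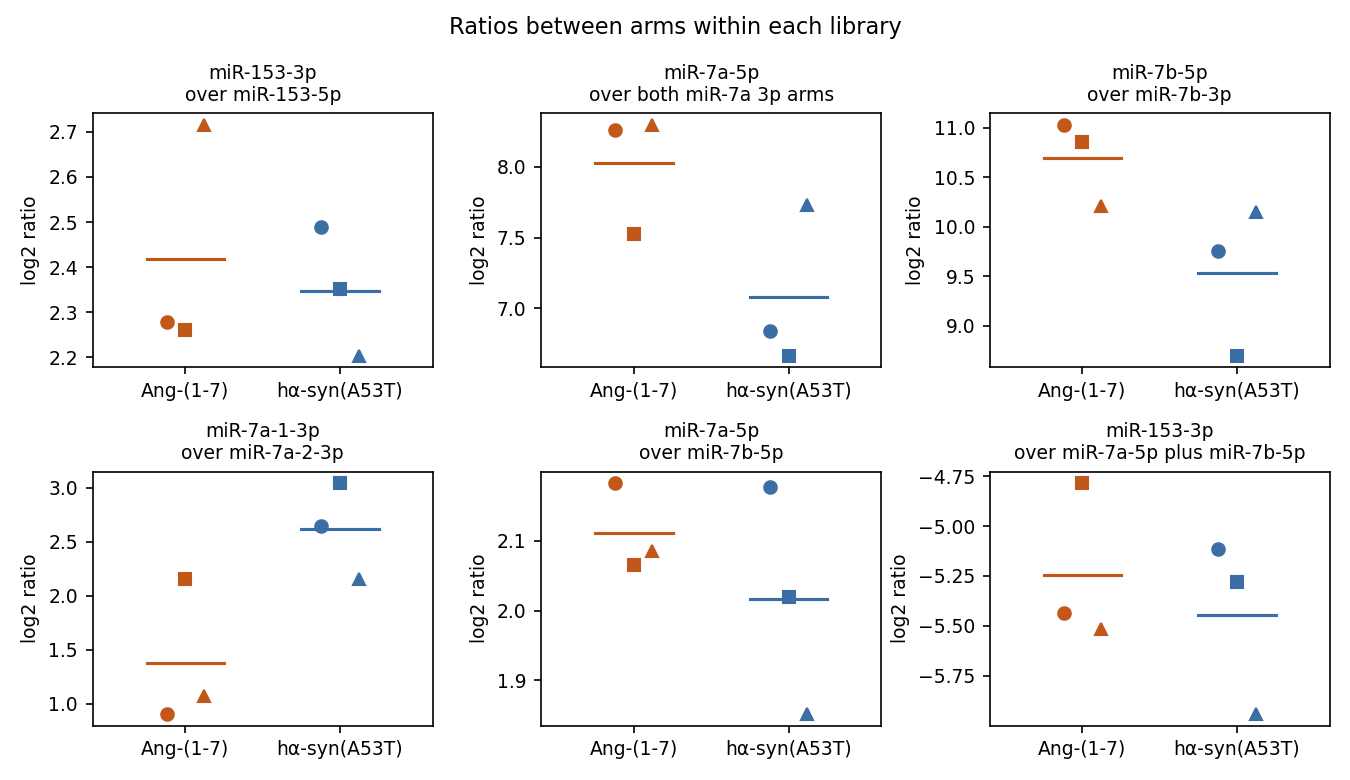
log2 ratio of 6 pairs of arms within each library (y axis, a scale per panel), Ang-(1-7) libraries (orange) left of hα-syn(A53T) libraries (blue); lines are group means, and circles, squares and triangles are replicates 1, 2 and 3. The miR-7a-1-3p to miR-7a-2-3p ratio has the largest difference in size among the 6 ratios, -1.24, and miR-153-3p over miR-153-5p the smallest, 0.07.

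Across libraries, the miR-153 and miR-7 arms did not follow the same order within a group. Among the Ang-(1-7) libraries replicate 2 had the highest miR-153-3p and miR-153-5p and the lowest miR-7a-5p, miR-7b-5p and miR-7a-2-3p. Among the hα-syn(A53T) libraries replicate 3 had the highest miR-7 guides, and replicate 1 the highest miR-153-3p. As a description over 6 libraries that share the group difference, the log2 level of miR-7a-5p had a Pearson correlation of 0.98 with miR-7b-5p, 0.96 with miR-7a-2-3p, 0.80 with miR-153-3p and -0.76 with miR-7a-1-3p. That of miR-153-3p with miR-153-5p was 0.95.

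The miRNAs most like miR-153-3p over the 6 libraries, among 446 others with a mean of at least 100 normalized counts, were miR-24-2-5p (r = 0.99), miR-431-5p (0.99), miR-218-5p (0.98), miR-187-3p (0.98) and miR-141-3p (0.98). miR-431-5p comes from the imprinted Dlk1-Dio3 region, miR-218-5p is known from neurons, and miR-141-3p belongs to the epithelial miR-200 family. Those most like miR-7a-5p were miR-139-3p (0.98), its paralog miR-7b-5p (0.98), miR-344b-3p (0.96), miR-344d-3-5p (0.96) and miR-7689-3p (0.96). These 10 names are a description only, drawn from 446 candidates over 6 points that share the group difference.

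The miRNA of the miR-7 circuit was not shown to differ. miR-671 directs the cleavage of Cdr1as, the circular RNA that holds miR-7 sites. miR-671-5p stood at 195, 235 and 411 normalized counts in Ang-(1-7) libraries, against 177, 235 and 334 in hα-syn(A53T) libraries, and miR-671-3p at 1239.6, 868 and 989 in Ang-(1-7) libraries, against 1079, 1077 and 768 in hα-syn(A53T) libraries. The groups overlapped for both arms, and 0 of the 2 passed in limma (log2 fold changes of 0.14 and 0.08, adjusted p = 0.843 and 0.882, 0 with an unadjusted p under 0.05). Cdr1as and Cyrano themselves were not measured in these small RNA libraries.

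Other miRNAs reported to act on α-syn or its clearance included none called higher. Of 6 listed, 0 rose, 1 fell and 5 did not pass in limma, where 5.54% of all miRNAs tested passed as higher and 4.04% as lower. Their median log2 fold change was -0.67, beside -0.04 over all miRNAs tested. The list mixes actions: by the paper's introduction miR-133b can lower α-syn, while more miR-16-1 may hinder its clearance. The median thus says nothing on α-syn repressors as a class. The one that fell was miR-133b-3p, a miRNA of muscle and of dopaminergic neurons, at 69.9, 72.7 and 54.4 normalized counts in Ang-(1-7) libraries, against 364, 261 and 208 in hα-syn(A53T) libraries (log2 fold change -2.04, standard error 0.29, adjusted p = 0.00285 from limma). miR-214-3p had a log2 fold change of -1.07 (adjusted p = 0.0785) and miR-16-5p one of -0.78 (adjusted p = 0.110). miR-155-5p had -0.56, miR-34b-5p 0.26 and miR-34c-5p 0.10, and these 3 had adjusted p-values of 0.253 to 0.830 from limma.

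Of the 8 neuroendocrine miRNAs listed, 7 were in the table, of which 3 rose, 0 fell and 4 did not pass in limma (median log2 fold change 0.34). Over all miRNAs tested, 5.54% passed as higher and 4.04% as lower. miR-375-3p, which marks the endocrine cells that also hold much miR-7, stood at 841, 740.5 and 696 normalized counts in Ang-(1-7) libraries, against 494, 782 and 558 in hα-syn(A53T) libraries. These groups overlapped, and it did not pass (log2 fold change 0.34, adjusted p = 0.454 from limma). miR-184-3p rose (log2 fold change 1.97, adjusted p = 0.00696 from limma), as did miR-141-3p and miR-200a-3p of the miR-200 family (6.44 and 6.61). miR-129-5p and both miR-129 3p arms, which are neuronal, did not pass (-0.45 to 0.08).

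Markers of other cells and regions moved with the groups, and their part in the result was not tested beyond 1 fit. Of 6 neuronal miRNAs, 3 rose (miR-138-5p, miR-137-3p and miR-218-5p), 1 fell (miR-124-3p) and 2 did not pass in limma. Counts of calls here stand beside 5.54% higher and 4.04% lower over all miRNAs tested. The summed level of these neuronal miRNAs was 3379715 to 4649594 normalized counts with Ang-(1-7) and 2959677 to 3330275 without it. The groups of this sum did not overlap, as was so for 28.2% of single miRNAs tested. Most of the sum was miR-9-5p and miR-128-3p, which did not pass (adjusted p = 0.761 and 0.0586 from limma), so it does not stand for the list. Of 5 miRNAs of the Hox clusters, which mark hindbrain and spinal cord, 1 fell (miR-196a-5p) and 4 did not pass in limma (median log2 fold change -2.91). miR-196a-5p was at 0 in each Ang-(1-7) library, against only 4.10, 9.27 and 7.08 normalized counts in hα-syn(A53T) libraries. It met the filter on low values through the hα-syn(A53T) group alone. The sum of the 5 Hox miRNAs was 2230, 1374 and 31986 normalized counts with Ang-(1-7), against 13017, 75783 and 59761 without it. Ang-(1-7) replicate 3 thus lay among the hα-syn(A53T) libraries. With a covariate for the mean log2 level of the abundant pair among them, miR-10a-5p with miR-10b-5p, 0 of the 7 arms passed in limma (4 had an unadjusted p under 0.05, as did 12.2% of all miRNAs in that fit). The standard errors of the log2 fold changes were then 0.26 for miR-153-3p, 0.27 for miR-153-5p and 0.30 for miR-7a-5p. In that fit 22 of all miRNAs passed, against 102 without the covariate.

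Further marker lists are given by their sums in normalized counts over the libraries of a group. Their counts of calls stand beside 5.54% higher and 4.04% lower over all miRNAs tested. The list for choroid plexus and epithelium held 197047 to 516248 with Ang-(1-7) and 55900 to 70598 without it. Of its 10 miRNAs 5 rose, all of the epithelial miR-200 family, while 2 fell, namely miR-204-5p and miR-211-5p, which are abundant in choroid plexus. The pituitary list held 19018 to 34165 with Ang-(1-7) and 6726 to 7981 without it, and 3 of 4 rose (miR-141-3p, miR-200c-3p and miR-212-5p). Of these, miR-141-3p and miR-200c-3p are miR-200 members already counted in the list for choroid plexus and epithelium. Most of the sum without Ang-(1-7) was miR-212-5p (means of 13390 with Ang-(1-7) and 6310 without it), so the sum does not stand for the list. Whether miR-212-5p came from pituitary cells was not tested. The endocrine miR-375-3p of the pituitary list did not pass (adjusted p = 0.454 from limma). The muscle list, which contains miR-133b-3p, held 14945 to 21833 with Ang-(1-7) and 42091 to 86348 without it, and 4 of 4 fell. The list for red blood cells held 1573 to 1808 with Ang-(1-7) and 3617 to 6903 without it, and 1 of 4 fell (miR-486a-5p). Most of that sum was miR-486a-5p (means of 1342 with Ang-(1-7) and 5400 without it), so it does not stand for the list. The median log2 fold change of the list was 0.22. miR-451a, which defines these cells, had a positive estimate (0.83), as did miR-144-5p (1.16), while that of miR-144-3p was negative (-0.40). None of these passed in limma. The oligodendrocyte list held 35886 to 66079 with Ang-(1-7) and 60729 to 168387 without it, so its sums overlapped, and 1 of 4 fell (miR-338-5p). The sums also overlapped for microglia and leukocytes (15357 to 33942 with Ang-(1-7) and 16288 to 35954 without it) and for endothelium (198115 to 225918 with Ang-(1-7) and 199929 to 227653 without it). Of the 8 miRNAs in the lists for microglia and leukocytes and for endothelium, 0 passed in limma, and 0 had an unadjusted p under 0.05. No marker was at 0 in all 6 libraries.

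**Figure D4:**
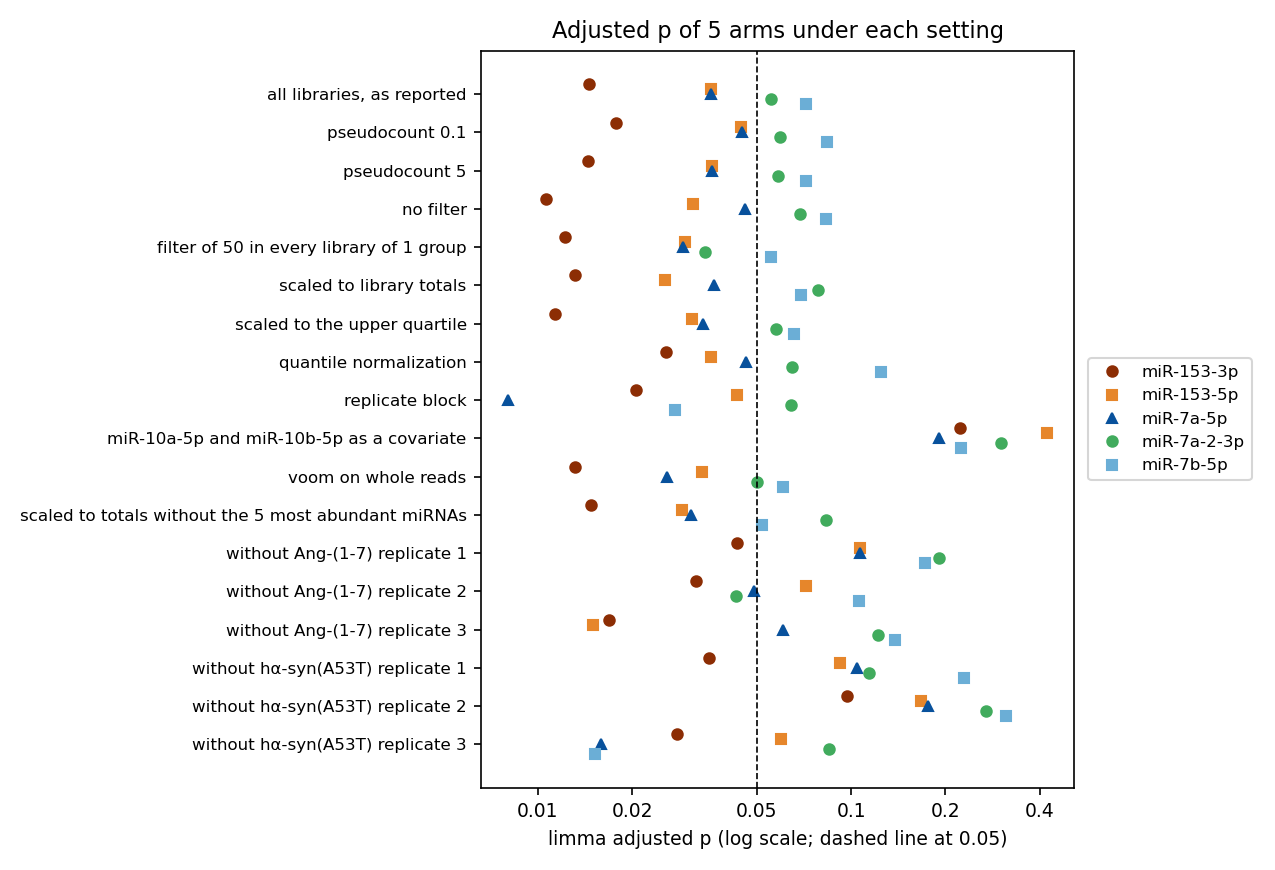
Adjusted p from limma (x axis, log scale, dashed line at 0.05) of the 5 arms with a positive log2 fold change, under the reported fit and each alternative (y axis). miR-153-3p stays left of the line in all settings but the covariate of miR-10a-5p with miR-10b-5p (0.223) and the fit without hα-syn(A53T) replicate 2 (0.0971), while each of the other 4 arms lies on both sides of the line, depending on the setting.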

How the data were processed

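Small RNA of the right SN was sequenced as 6 libraries (NovaSeq, paired ends). The submitters' processing notes name Bowtie 1.2.3, DESeq2 1.10.1 and the build mm9. For trimming, the miRBase release and the counting rule, nothing was given in the sources used here. The authors deposited normalized counts, a signal of reads divided by a size factor. The table held 1393 annotated miRNAs together with 1231 predicted loci that were scaled separately. All values were whole multiples of 1 read (tolerance 1e-06). Because the unit is normalized, the planned count models, edgeR and DESeq2, were not run, and limma voom on the whole reads was added after seeing the data. The deposited comparison columns (fold change, standard error, statistic, p-values, calls and group means) and a sheet of called miRNAs were not used.

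Annotated miRNAs with at least 1 normalized count in at least 3 libraries (1065) were fitted on log2(value + 1) with limma 3.58.1 in R 4.3.3, with no covariate, and p-values were adjusted over all of them by the method of Benjamini and Hochberg. On that scale, the changes of scarce miRNAs come out too small. Ratios were tested by exact permutation of the libraries and the order of levels by exact sign flips, all two-sided. Groups and replicate numbers were taken from the labels. The texts name the 7 arms, members of the lists (other miRNAs acting on α-syn, the miR-7 circuit, neuroendocrine miRNAs and markers of other cells), and for miR-153-3p and miR-7a-5p the 5 miRNAs most correlated with each. The members and lists were chosen with earlier results of these data known. miR-375-5p is not analysed here. The control mice of the study are not analysed here. Alternatives were other pseudocounts (0, 0.1 and 5), no filter or a minimum of 50 throughout 1 group, scaling to library totals, to the upper quartile, to totals without the 5 most abundant miRNAs (added after seeing the data) or by quantiles, the replicate number as a block, the miR-10 level as a covariate, and leaving out each library. Sequences are from RefSeq (GRCm38.p6) and genes from GENCODE M21, a later build than mm9, so no coordinate of the deposited table was used. The scripts were tested on simulated data.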

Additional observations from a re-analysis of the deposited data

How the results depend on the processing

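Over 11 other settings, miR-153-3p (log2 fold change 0.86 to 1.11, adjusted p = 0.0106 to 0.223), miR-153-5p (0.60 to 1.04, adjusted p = 0.0254 to 0.422) and miR-7a-5p (0.90 to 1.06, adjusted p = 0.00805 to 0.190) passed in 10 each, and failed with the miR-10 covariate, the mean over miR-10a-5p and its relative miR-10b-5p (0.86, 0.60 and 1.06, all p-values in this section from limma). With that covariate 0 of the 7 arms passed (4 had an unadjusted p under 0.05, beside 12.2% of all miRNAs), 22 of all miRNAs passed, and miR-7b-3p changed sign to 0.43 (adjusted p = 0.706). The cause was not tested, and the covariate takes up 1 of 4 residual degrees of freedom. miR-7b-5p passed only with the replicate number as a block (0.82, adjusted p = 0.0274, and 4 arms and 112 miRNAs passing) and miR-7a-2-3p only with the filter of 50 (0.93, adjusted p = 0.0341), which left fewer miRNAs to adjust over and left out miR-7b-3p. The replicate numbers were not taken as pairs, since deviations of same-numbered libraries correlated at 0.12, -0.09 and 0.18, and the block changed no other call. A deposited sheet numbers the hα-syn(A53T) libraries otherwise than the labels, so which libraries would share a block is in doubt.

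Leaving out 1 library gave log2 fold changes of 0.98 to 1.22 for miR-153-3p, 0.83 to 1.22 for miR-153-5p, 0.76 to 1.08 for miR-7a-5p, 0.66 to 1.07 for miR-7b-5p and 0.80 to 1.09 for miR-7a-2-3p, with 0 to 3 arms called and 27 to 111 of all miRNAs passing, against 102 with all libraries. Without hα-syn(A53T) replicate 2, 0 arms were called (5 had an unadjusted p under 0.05, beside 15.3% of all miRNAs), and 1 was called when replicate 1 of either group was left out. Of all miRNAs, 46 passed when Ang-(1-7) replicate 1 was left out and 53 when its replicate 2 was. The hα-syn(A53T) libraries gave 33 when replicate 1 was left out and 27 when replicate 2 was. The difference in log2 ratio of miR-153-3p over miR-153-5p ranged from -0.08 (-0.078 without Ang-(1-7) replicate 3) to 0.15 and was -0.0014 without hα-syn(A53T) replicate 3. That of miR-153-3p over the miR-7 guides ranged from -0.05 (-0.047 without hα-syn(A53T) replicate 3) to 0.37 and was -0.029 without Ang-(1-7) replicate 2. With 3 libraries a group no exact test of a single value can go below 0.1, and reads of miR-7b-3p were too few to narrow its interval.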
